A study of Mus musculus with 12 samples.

Results

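The olfactory receptor (OR) genes examined here are the class II ORs of the mouse chromosome 19 cluster. They were chosen by name, as the probe sets whose platform symbol lies in the numbered run from Olfr1417 to Olfr1505, without pseudogene symbols, and with every symbol matching where several were given. The choice gave 58 of the 35556 probe sets in the table, and 1061 other probe sets carried OR symbols. Of the 58, 56 had 1 symbol and were matched to a RefSeq gene, all 56 on chromosome 19, and 2 had several symbols (Olfr1426 with Olfr1424 and Olfr1425, and Olfr1502 with Olfr1505). A mean signal above log2 5, the filter applied to all probe sets, was reached by 55 of them.

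The data compare the main olfactory epithelium (MOE) of H2be-KO mice with that of WT mice at 6 months of age, on 6 Affymetrix Mouse Gene 1.0 ST arrays for each genotype. Each array held RNA from the freshly dissected whole MOE of 2 pooled mice. In H2be-KO mice the coding sequence of H2be, a histone H2B variant gene of olfactory neurons, is replaced by a Gap43-mCherry reporter in every cell of the body, and the line was crossed to C57Bl/6. WT mice carry neither allele change, and the labels name no treatment for either genotype.

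An OR is a G-protein-coupled receptor in the cilia of an olfactory sensory neuron, where odorant binding activates adenylyl cyclase and opens a cyclic-nucleotide-gated channel. Each neuron expresses 1 allele of 1 OR gene, so the signal of an OR in whole tissue depends both on how many neurons chose it and on how much of its RNA each neuron holds. Class II ORs are the large group typical of land vertebrates, and they lie in clusters in which neighbors often arose by duplication. The MOR names in RefSeq sort them into families by sequence. The protein of Olfr1440 (MOR215-1) is known as a receptor for muscone, a musk odorant. Ligands are not given here for the other members.

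The first 50 coding bases are shown for the members on which the results turn, from RefSeq on build GRCm38.p6, with the ATG start codon in capitals. The 5 MOR202 receptors with higher signals in H2be-KO come first, because they share a family and a stretch of the cluster. Of these, Olfr1447 and Olfr1461 are identical at 42 of 50 bases.
Olfr1445 (chr19:12883883-12883932, plus strand): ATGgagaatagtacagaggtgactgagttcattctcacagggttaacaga
Olfr1447 (chr19:12901729-12901778, minus strand): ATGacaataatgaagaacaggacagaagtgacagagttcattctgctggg
Olfr1449 (chr19:12934740-12934789, plus strand): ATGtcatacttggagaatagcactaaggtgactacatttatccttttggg
Olfr1461 (chr19:13165016-13165065, plus strand): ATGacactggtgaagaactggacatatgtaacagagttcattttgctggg
Olfr1462 (chr19:13190669-13190718, plus strand): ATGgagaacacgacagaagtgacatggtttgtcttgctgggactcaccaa
Olfr1446 is shown next because its start is identical to that of Olfr1447 at 50 of 50 bases, and Olfr1463 with Olfr1466 because they are identical at 47 of 50.
Olfr1446 (chr19:12890526-12890575, minus strand): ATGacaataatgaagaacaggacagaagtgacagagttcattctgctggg
Olfr1463 (chr19:13234252-13234301, plus strand): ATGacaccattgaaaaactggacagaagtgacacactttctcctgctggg
Olfr1466 (chr19:13341760-13341809, plus strand): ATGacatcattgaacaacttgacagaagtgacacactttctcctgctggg
The muscone receptor Olfr1440 and 2 members of the MOR239 family, Olfr1424 and Olfr1427, complete the set, as receptors outside MOR202 that the results name.
Olfr1440 (chr19:12394265-12394314, plus strand): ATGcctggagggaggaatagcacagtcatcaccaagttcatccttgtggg
Olfr1424 (chr19:12059701-12059750, minus strand): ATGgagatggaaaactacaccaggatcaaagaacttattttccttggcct
Olfr1427 (chr19:12099588-12099637, minus strand): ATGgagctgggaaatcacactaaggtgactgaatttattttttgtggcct
Among the 54 members with a sequence window, 47 windows opened the coding sequence with ATG and could be compared without gaps. Members of one MOR family were identical at a median of 34% of the 50 bases over 338 pairs, and members of different families at 32% over 743 pairs. The MOR239 receptors were alike at a median of 70%, and 25 MOR202 receptors at a median of 34%, with a range from 22% to 100%. Bases were compared position by position from the ATG without alignment, so a low share does not show that 2 receptors are unlike. Short oligonucleotide probes can pick up RNA of a near-identical receptor, so the signals of the most alike pairs are uncertain as measures of single genes.

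Facts of the whole series bear on these values. H2be, the targeted gene, had a signal of log2 11.65 ± 0.12 in H2be-KO and 11.89 ± 0.17 in WT (SD, n = 6 each), lower by 0.24 on the log2 scale with overlapping groups (two-sided exact permutation p = 0.0195); where its probes lie relative to the replaced coding sequence was not analysed here. The arrays correlated with each other at 0.951 to 0.985. Neuronal markers placed the tissue as labelled, with Omp, a protein of mature olfactory neurons, at log2 12.90 ± 0.07 in both genotypes and the channel subunit Cnga2 at 12.20 ± 0.10 in H2be-KO and 12.11 ± 0.11 in WT. Horizontal basal cell markers (5 of 5 measured, 0 higher and 1 lower in H2be-KO) had a mean, less that of the array, of 0.34 to 0.58 in H2be-KO and 0.35 to 0.97 in WT. The highest of these, 0.97, was WT replicate 4, which was also highest for respiratory ciliated cell markers (4 of 4 measured, none called, 1.38 to 1.81 in H2be-KO and 1.54 to 1.97 in WT). Enamel genes (3 of 3 measured, none called) were high in H2be-KO replicates 1 and 6, with Amelx at 11.87 and 11.66 against 5.11 to 6.03 on the other arrays.

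Of the 55 members measured above the filter, 6 had a higher signal in H2be-KO than in WT and 2 had a lower one at an unadjusted p under 0.05 in limma, a linear model with a spread estimate shared across probe sets. The 6 were Olfr1440 of MOR215 and Olfr1445, Olfr1447, Olfr1449, Olfr1461 and Olfr1462 of MOR202, and the 2 were Olfr1419 of MOR266 and Olfr1424 of MOR239. The shares, 10.9% higher and 3.64% lower, compare with 3.78% and 1.77% of all 28151 probe sets tested, and with 4.26% and 0.580% of the 1034 other OR probe sets. No member passed after Benjamini-Hochberg adjustment over all probe sets, where the smallest adjusted p of a member was 0.753, and 0% of all probe sets passed. By the exact permutation test 5 members were higher and 2 lower, against 3.98% and 2.03% of all probe sets. No member had groups that did not overlap, in either direction, and 0.0888% of all probe sets had such groups in each direction. Fewer neurons of a receptor and less RNA per neuron cannot be told apart in whole tissue, and the p-values measure the spread between pools of mice.

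**Figure D1:**
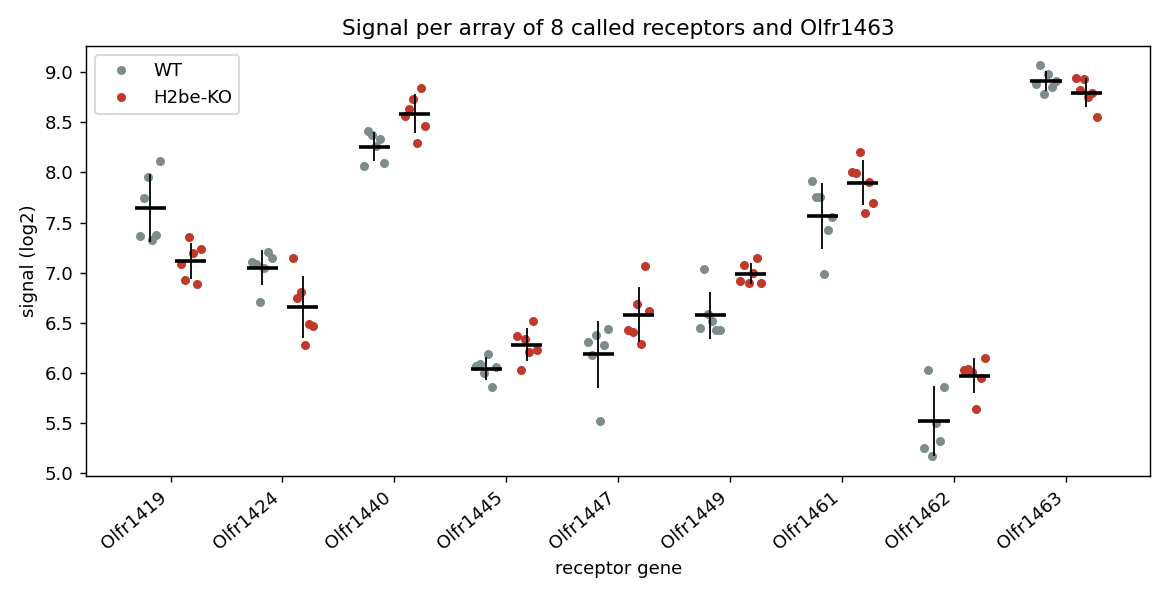
Signal (log2) of Olfr1463 and of the 8 members with an unadjusted limma p under 0.05 on each of the 12 arrays, with WT in grey and H2be-KO in red; thick bars are means and thin bars reach 1 SD to either side. The points of the genotypes overlap in every panel, and the means are 0.24 to 0.45 apart in the 6 higher members and -0.53 and -0.40 apart in the 2 lower ones.

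Olfr1449 (MOR202-34) had the smallest p of the 6 higher members. Its signal was 6.89 at the lowest, 6.96 at the median and 7.15 at the highest in H2be-KO, and 6.42, 6.48 and 7.04 in WT. Of the WT arrays, 5 lay below every H2be-KO array, while WT replicate 2, at 7.04, lay among them. The difference was 0.41 ± 0.11 (log2, SE), or 1.33-fold (limma unadjusted p = 0.00149, exact permutation p = 0.0108). Leaving out each array in turn gave differences of 0.38 to 0.51.

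Olfr1440, the muscone receptor, ranged from 8.29 over a median of 8.60 to 8.84 in H2be-KO and from 8.07 over 8.30 to 8.41 in WT. All H2be-KO arrays but 1 lay above the highest WT array. The difference was 0.33 ± 0.10 (SE), or 1.26-fold (limma unadjusted p = 0.00569, exact permutation p = 0.0108). Olfr1441, its neighbor and the only other MOR215 member, had 6.14 ± 0.26 in H2be-KO and 5.99 ± 0.28 in WT (SD), a difference of 0.15 that did not pass the test. Another muscone receptor of the cluster, Olfr1437, had no probe set of its own and is not analysed here.

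Olfr1462 (MOR202-13) ranged from 5.64 over 6.02 to 6.15 in H2be-KO and from 5.17 over 5.41 to 6.02 in WT. Of the H2be-KO arrays, 3 lay above all WT arrays, and the signals were close to the filter. At 0.45 ± 0.14 (SE), or 1.37-fold, its difference was the largest among the 6 (limma unadjusted p = 0.00733, exact permutation p = 0.0216).

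Olfr1447 and Olfr1446, neighbors with identical first 50 coding bases, are uncertain as single genes. Olfr1447 ranged from 6.29 over 6.52 to 7.06 in H2be-KO and from 5.52 over 6.29 to 6.44 in WT, a difference of 0.40 ± 0.16 (SE; limma unadjusted p = 0.0236, exact permutation p = 0.0238). On 3 H2be-KO arrays the signal lay above all of WT, and WT replicate 4 lay apart at 5.52. Olfr1446 had a difference of 0.16, which did not pass (exact permutation p = 0.416). The difference between these differences, -0.24, did not pass either (exact permutation p = 0.294).

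Olfr1445 (MOR202-7) ranged from 6.03 over 6.28 to 6.52 in H2be-KO and from 5.85 over 6.06 to 6.19 in WT. Of the H2be-KO arrays, 5 lay above all of WT. The difference of 0.24 ± 0.09 (SE), or 1.18-fold, was the smallest among the 6 (limma unadjusted p = 0.0204, exact permutation p = 0.0216). The call was lost without H2be-KO replicate 5 (limma p of 0.0549) and without WT replicate 5 (0.0538). Olfr1448, identical to Olfr1445 at 48 of 50 bases, had a difference of 0.14 that did not pass (exact permutation p = 0.184). The gap between the differences, 0.096, did not pass either (exact permutation p = 0.383), and Olfr1445 is uncertain as a single gene.

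Olfr1461 (MOR202-35) ranged from 7.60 over 7.95 to 8.20 in H2be-KO and from 6.98 over 7.65 to 7.91 in WT. Of the H2be-KO arrays, 3 lay above all of WT. The difference was 0.33 ± 0.15 (SE; limma unadjusted p = 0.0390), and the exact permutation p was 0.0628. This was the least stable of the calls when single arrays were left out. It was lost without H2be-KO replicate 1, 2, 3 or 5 or WT replicate 4, 5 or 6, with a highest limma p of 0.0931. With replicate numbers as a block its limma p was 0.00371, where 7.24% of all probe sets were higher. A covariate for Y-linked genes gave a limma p of 0.00861. Without WT replicate 4 the difference fell to 0.22, whereas without H2be-KO replicate 5 it stayed at 0.33 with the call lost.

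Olfr1419 (MOR266-10) was the member with the largest fall. Its signal ranged from 6.89 over 7.14 to 7.35 in H2be-KO and from 7.33 over 7.56 to 8.11 in WT. Below the lowest WT array lay 5 of the 6 H2be-KO arrays, so the groups overlapped in a single H2be-KO array. The difference was -0.53 ± 0.14 (SE), 0.691 of the WT signal (limma unadjusted p = 0.00202, exact permutation p = 0.0043). Leaving out each array in turn gave -0.60 to -0.44. The smallest two-sided p that 6 arrays against 6 can give is 0.0022.

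Its 3 nearest receptor neighbors, Olfr1417, Olfr1418 and Olfr1420, all of MOR266, did not pass the test and had small positive differences of 0.01, 0.09 and 0.07. Over the 8 MOR266 members the median difference was 0.07, with 6 positive and 2 negative.

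Olfr1424 (MOR239-2) ranged from 6.28 over 6.61 to 7.14 in H2be-KO and from 6.71 over 7.10 to 7.21 in WT. Of the H2be-KO arrays, 3 lay below all of WT, and WT replicate 3, at 6.71, lay apart from the other WT arrays, the next at 7.04. The difference was -0.40 ± 0.13 (SE), 0.760 of the WT signal (limma unadjusted p = 0.00991, exact permutation p = 0.0346). The probe set shared by Olfr1426, Olfr1424 and Olfr1425 had 8.61 ± 0.09 in H2be-KO and 8.83 ± 0.23 in WT (SD), a difference of -0.22 (limma unadjusted p = 0.0522, exact permutation p = 0.0628).

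Olfr1424 was the only one of the 5 MOR239 receptors to pass, and all 5 had negative differences. For Olfr1423, Olfr1426 and Olfr1427 they were -0.06, -0.04 and -0.003, with exact permutation p of 0.634, 0.792 and 0.972. Olfr1428 ranged from 8.56 over 8.82 to 9.08 in H2be-KO and from 8.80 over 8.99 to 9.05 in WT, with a difference of -0.14 ± 0.10 (SE; exact permutation p = 0.175). MOR239 members lie side by side and, compared position by position, have the most alike coding starts after MOR211. As single genes their values are uncertain.

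Olfr1463 (MOR202-29P) ranged from 8.55 over 8.81 to 8.94 in H2be-KO and from 8.78 over 8.90 to 9.07 in WT. Only 2 H2be-KO arrays lay below all of WT. The difference of -0.12 ± 0.09 (SE) did not pass (limma unadjusted p = 0.195, exact permutation p = 0.136), and was -0.14 to -0.07 when each array was left out. It was the most negative difference of the 28 MOR202 receptors measured above the filter. Olfr1466, whose coding start differs from it at only a few bases, had 8.99 ± 0.27 in H2be-KO and 8.87 ± 0.36 in WT (SD), a difference of 0.13 (exact permutation p = 0.526). The gap between the differences of Olfr1463 and Olfr1466, -0.24, did not pass (exact permutation p = 0.234).

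Such gaps were tested in 12 pairs of members identical at 45 or more of the 50 bases, several of which share a member. The exact permutation p ran from 0.117, for Olfr1472 at 0.20 against Olfr1474 at -0.04, to 0.963, for Olfr1502 against Olfr1505. After Benjamini-Hochberg adjustment over the 12 the smallest was 0.657, so no pair was shown to differ in its response.

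The 28 MOR202 receptors above the filter, the largest family of the cluster with 30 probe sets, held 5 of the 6 higher members and neither lower one. That is 17.9% higher and 0% lower, beside 3.78% and 1.77% of all probe sets tested. MOR202 made up 28 of the 55 members. The MOR202 median difference was 0.11, with 20 positive and 8 negative and a range from -0.12 to 0.45. Olfr1451 (0.35 ± 0.23, SE, exact permutation p = 0.234) and Olfr1453 (-0.06 ± 0.13, exact permutation p = 0.660) stand for the widest differences of either sign that did not pass, beside Olfr1463. Without H2be-KO replicate 3 the difference of Olfr1451 was 0.16. The 4 MOR212 members had a median difference of 0.13, the 2 MOR214 members above the filter 0.11 and the 3 MOR211 members 0.00084, and none of them passed the test. Among MOR211, Olfr1499 had 0.27 ± 0.18 (SE; exact permutation p = 0.210), and 0.15 without WT replicate 4.

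Olfr1496 (MOR127-1), the only member of its family in the cluster, had the widest difference of all, 0.63 ± 0.54 (SE), and did not pass (limma unadjusted p = 0.262, exact permutation p = 0.463). It ranged from 6.61 over 7.12 to 7.66 in H2be-KO and from 3.42 over 7.18 to 7.41 in WT. The value of 3.42 belonged to WT replicate 4, with the other WT arrays at 6.30 to 7.41, and without that array the difference was 0.017.

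By position, the members fell into 4 stretches separated in RefSeq by protein-coding genes that are not receptors. Olfr1417 to Olfr1420 (4 members, 0 higher, 1 lower) had a median difference of 0.04, and 2 genes, Patl1 and Osbp, lie before the next. Olfr1423 to Olfr1441 (9 above the filter, 1 higher, 1 lower) had a median of -0.0031, with 4 positive and 5 negative. Olfr1442 and Olfr1443 (0 higher, 0 lower) had a median of 0.03. Olfr1444 to Olfr1505 (38 above the filter, 5 higher, 0 lower) had a median of 0.12, with 28 positive and 10 negative. The shares higher in the 4 stretches were 0%, 11.1%, 0% and 13.2%, and the shares lower 25%, 11.1%, 0% and 0%. Over all probe sets they were 3.78% and 1.77%. All 5 higher members of the last stretch lie between Olfr1445 and Olfr1462. Without WT replicate 4 the medians of the 4 stretches were -0.03, -0.09, -0.15 and 0.06, and 23 of 38 members of the last were positive. Whether the stretches differ was not tested.

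**Figure D2:**
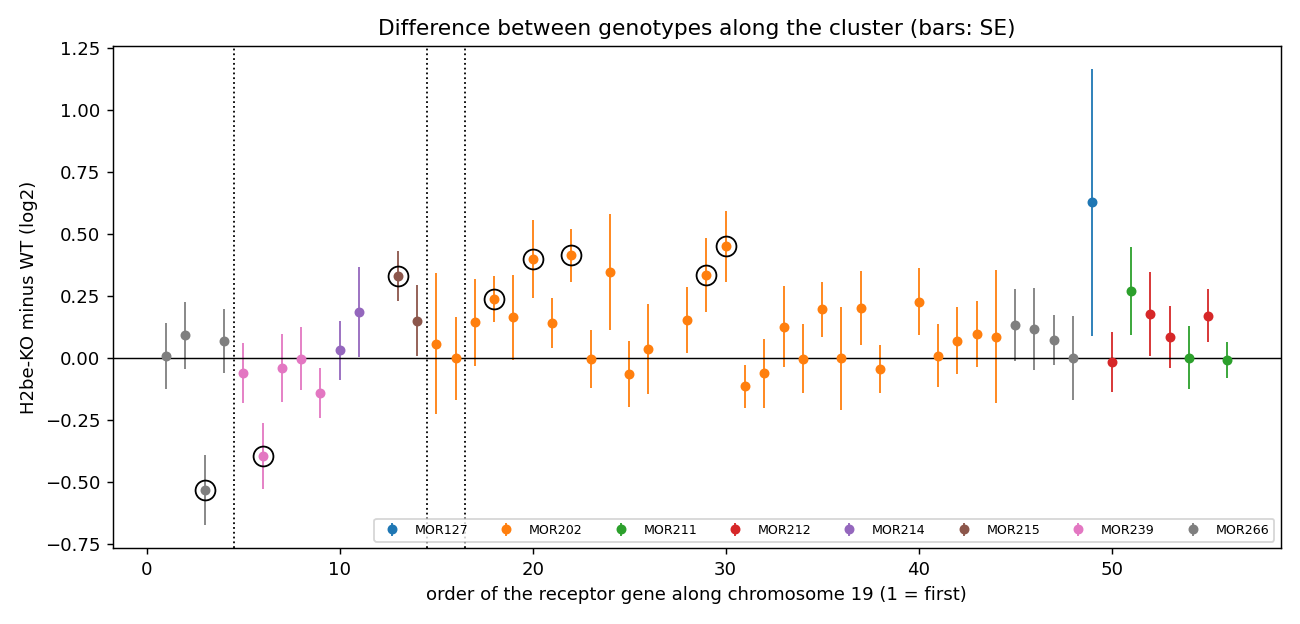
Difference between genotypes (H2be-KO minus WT, log2, with SE) of each member above the filter, in gene order along chromosome 19, colored by MOR family, with the 8 members at an unadjusted limma p under 0.05 circled and dotted lines where protein-coding genes that are not receptors lie between. Circled members on the right of the last line sit above 0, between Olfr1445 and Olfr1462, the MOR239 members sit at or below 0, and the widest error bar is that of Olfr1496.

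As a group the 55 members were shifted slightly upward in H2be-KO. The median difference was 0.084 (quartiles -0.0035 and 0.181), and 37 of 55 (67.3%) were positive, compared with 56.2% of all probe sets and 65.8% of the other ORs. The median over all probe sets was 0.02, and that over the other ORs was 0.06. Measured against the mean of the other ORs on each array, the median of the members was 0.023, with 31 positive, and 5 members were higher and 3 lower. On that scale 0.863% of all probe sets were higher and 3.05% lower.

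The size of the upward shift depended on single arrays, most of all on replicate 4 of each genotype. Without WT replicate 4 the median difference of the members was 0.017, with 29 of 55 positive, beside 0.02 over all probe sets. Of the 55 members, 24 had their lowest WT signal on that array. Without it the MOR202 median fell from 0.11 to 0.01, with 14 of 28 positive and 4 members higher, the MOR266 median from 0.07 to 0.01 and the MOR239 median from -0.06 to -0.13. The MOR215 median fell from 0.24 to 0.22. The medians of MOR211, MOR212 and MOR214 rose, from 0.00084 to 0.087, from 0.13 to 0.16 and from 0.11 to 0.13. H2be-KO replicate 4 was the counterpart, holding the lowest H2be-KO signal of 27 members, and without it the median was 0.13, with 44 positive. The array averages show both. The member mean, less that of all probe sets on the array, ranged from -0.94 over -0.74 to -0.63 in H2be-KO. In WT it ranged from -1.11 over -0.80 to -0.73, and the lowest value, -1.11, was replicate 4, the next being -0.86. The dip was not particular to the members. The mean of the other ORs was also lowest on replicate 4 of each genotype. It was -0.55 in WT (the next -0.42) and -0.45 in H2be-KO (the next -0.44). WT replicate 4 was also the array of the highest horizontal basal and ciliated cell marker means given above. H2be-KO replicate 4 had the lowest mature (3.50) and immature (1.67) neuron marker means of all arrays. Its ciliated cell mean, 1.81, was the highest in H2be-KO, but its horizontal basal mean, 0.56, was not. Immune cell marker means were highest on replicate 4 in each genotype, at 0.54 in H2be-KO and 0.50 in WT. The part of these markers in the shift was not tested.

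**Figure D3:**
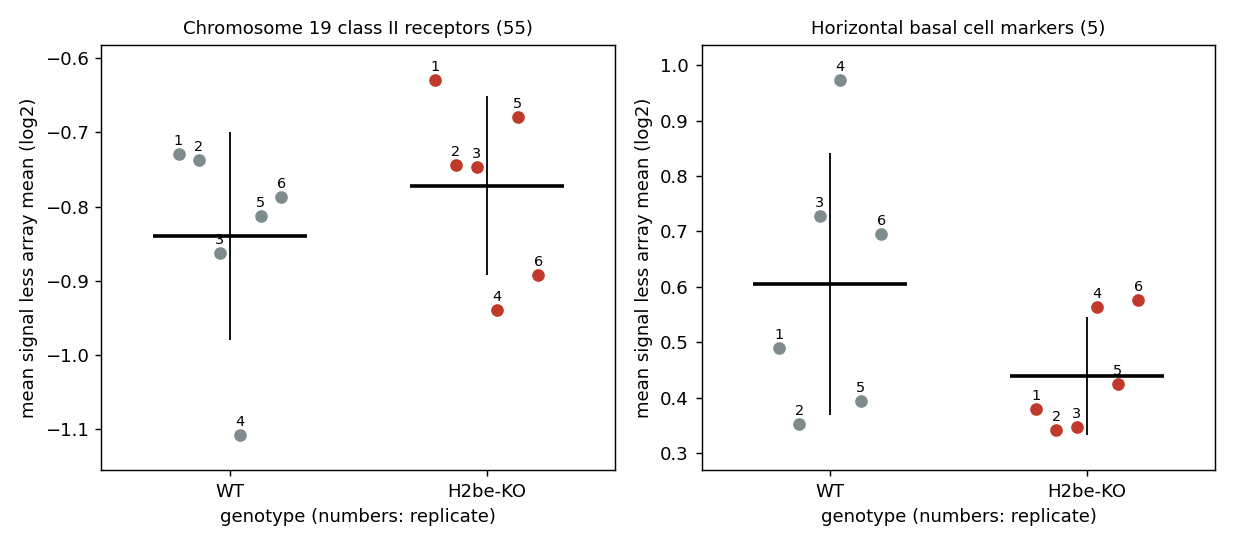
Mean signal (log2) of the 55 members and of the 5 horizontal basal cell markers on each array, less the mean of all probe sets on that array, with WT in grey and H2be-KO in red, replicate numbers beside the points, means as thick bars and 1 SD to either side as thin bars. WT replicate 4 has the lowest member mean, -1.11, and the highest marker mean, 0.97. The mean of the other ORs, not drawn, was also lowest on that array, at -0.55.

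**Figure D4:**
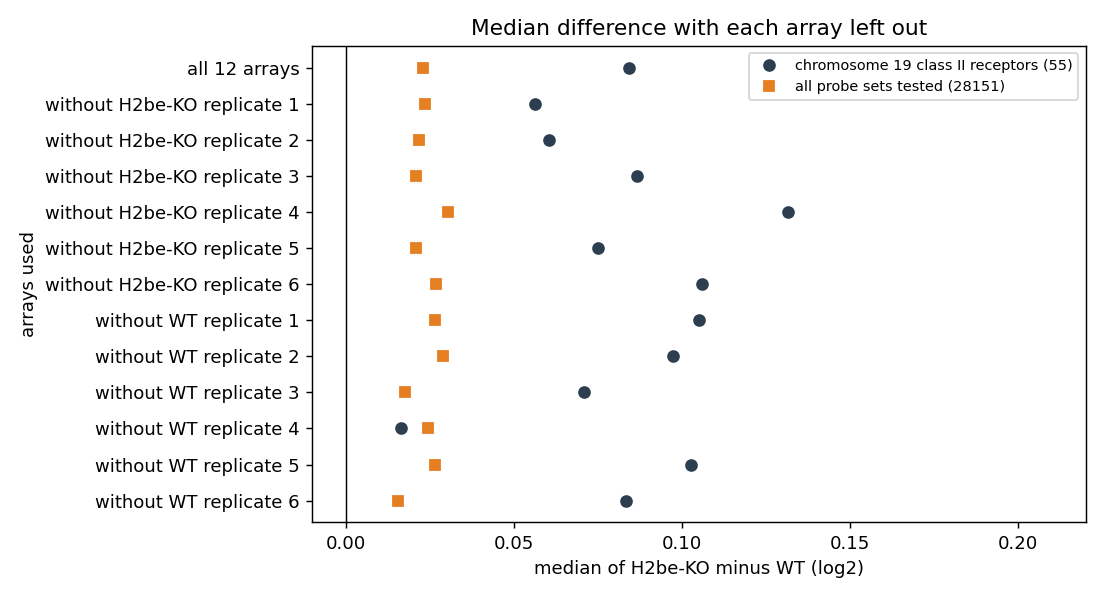
Median difference between genotypes (H2be-KO minus WT, log2) of the 55 members (circles) and of all 28151 probe sets (squares) with all arrays and with each array left out. The median of the members runs from 0.017 without WT replicate 4 to 0.13 without H2be-KO replicate 4. That of all probe sets runs from 0.016 without WT replicate 6 to 0.030 without H2be-KO replicate 4.

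The single calls differed in how far they depended on such arrays. Olfr1440, Olfr1449 and Olfr1462 passed as higher, and Olfr1419 and Olfr1424 as lower, under each of the alternatives and with each array left out. Without H2be-KO replicate 5 the number of higher members fell from 6 to 3, since the calls of Olfr1445, Olfr1447 (limma p of 0.0619) and Olfr1461 were lost. Calls over all probe sets fell too without that array, from 3.78% to 1.82% higher.

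The members below the filter were Olfr1436 (MOR214), Olfr1457 and Olfr1475 (both MOR202). Olfr1436 had 4.40 ± 0.29 in H2be-KO and 4.44 ± 0.30 in WT (SD, n = 6 each), and Olfr1457 had 4.46 ± 0.27 and 4.38 ± 0.43. Olfr1475 was the most variable, at 4.47 ± 0.88 and 4.31 ± 0.95, with single arrays from 2.53 to 5.37. These signals lie near background, and neither a level nor a difference can be read from them. The probe set shared by Olfr1502 and Olfr1505, above the filter, had 5.99 ± 0.37 and 5.64 ± 0.44, a difference of 0.35 (exact permutation p = 0.167).

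Of 28 genes for OR choice, trafficking and signalling, all measured with 31 probe sets, none was called in either direction, and the median difference was 0.0031. This list and the marker lists are short, and over all probe sets only 3.78% were called higher and 1.77% lower. The 28 genes include Lhx2 and Ldb1, which act at OR enhancers, at 0.0012 and -0.03, Ebf1, a factor with sites near OR genes, at 0.04, the transporter protein Rtp1 at -0.05 and the adenylyl cyclase Adcy3 at -0.08. Mature neuron markers (12 of 12 genes, none of 15 probe sets called) had a mean, less that of the array, of 3.50 to 3.66 in H2be-KO and 3.58 to 3.64 in WT. All of these markers but Stoml3 are also among the 28 genes, so the lists are not separate results. Slc24a4, in both lists, had a difference of -0.13 (limma unadjusted p = 0.137, exact permutation p = 0.0498). Of 8 immature neuron markers only Gap43 was called, 0.25 higher (exact permutation p = 0.0455), and the part of the Gap43-mCherry reporter in this signal was not tested. Sustentacular (6 of 7 measured) and immune (3 of 4 measured) cell markers held no called gene, and of the globose basal progenitor genes (5 of 6 measured) Top2a was 0.32 higher (limma unadjusted p = 0.0495, exact permutation p = 0.0801).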

How the data were processed

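RNA of whole MOE from 2 pooled mice per sample was hybridized to 12 Affymetrix Mouse Gene 1.0 ST arrays, 6 for each genotype. The authors summarized probes with IterPLIER and normalized the arrays by sketch-quantile in Affymetrix Expression Console, and the deposited values are log2 signals, so a change of most transcripts alike would not be seen. The submitters' processing notes also name limma. The sources used here give neither tool versions nor the genome build of the array annotation.

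Of 35556 probe sets, 6612 controls were left out, and 28151 of the 28944 others had a mean above log2 5 and were tested with limma 3.58.1 in R 4.3.3 (lmFit and eBayes on genotype, unadjusted p under 0.05 as the call, Benjamini-Hochberg over all probe sets). Single values were also tested with a two-sided exact permutation over the 924 choices of 6 of 12 arrays. The scripts were tested on simulated data. Arrays give no read depth, and their number and the signal over background limit the precision. At most 0.202% of probe sets had equal values on any 2 arrays, and each array counts as 1 sample.

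The members, gene lists and tests were chosen with earlier results of these data known. Members named were Olfr1463, those with an unadjusted p under 0.05, the 3 most positive and 3 most negative of the rest among probe sets with 1 symbol (Olfr1463 being one of these as well), and the muscone receptors; Olfr1437 had no probe set of its own. Planned pairs of most alike proteins were replaced by pairs of alike coding starts, since protein sequences were not used here, and the minimum of 45 bases was set after seeing the data. Other members named for family or position were chosen after their values were seen.

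Replicate numbers are shared by the genotypes, but the labels do not say that they mark a litter or day. The deviations of same-numbered arrays correlated at 0.025 to 0.592, not all above 0.1, and 4 of 6 arrays correlated best with their own number. The main fit did not treat the numbers as pairs, and the replicate block, an alternative, did. Alternatives were the filter, a floor, quantile and median scaling, averaging by symbol, weights for arrays, moderation with trend and robust settings, covariates for mature neuron markers and Y-linked genes, the replicate block, leaving out arrays and, added after seeing the data, signals relative to the other ORs. Y-linked genes (2 of 4 measured) were low in replicates 1 to 3 and high in replicates 4 to 6 of both genotypes, and the labels give no sex.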

Additional observations from a re-analysis of the deposited data

Results flagged for a closer look

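Values of single WT arrays lay apart from the other 5 in the named members, by the gap to the nearest array as a share of the whole range, where each share below is past Dixon's 95% critical value for 6 arrays, which chance passes in about 1 in 20 groups. WT replicate 4 was the low one for Olfr1496, at 3.42 with the next at 6.30 (share 0.721), and for Olfr1447, at 5.52 with the next at 6.17 (share 0.711). It was also the low one for the mean of the 55 members less that of the array, at -1.11 with the next at -0.86 (share 0.647). WT replicate 3 was the low one for Olfr1424, at 6.71 with the next at 7.04 (share 0.671), and WT replicate 2 the high one for Olfr1449, at 7.04 with the next at 6.59 (share 0.733).

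Over all 55 members, 9 had such a WT array and 0 such an H2be-KO array. WT replicate 4 was that array in 6 of the 9, in 5 of them as the lowest. Among WT arrays the members' signals were lowest on it 24 times and highest 5 times. Such arrays were not counted over all probe sets or over the other ORs, and the members share arrays. These counts therefore describe the arrays and are not a result about the members. The mean of the other ORs less that of the array was also lowest in WT on replicate 4, at -0.55.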

How the results depend on the processing

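The alternatives left Olfr1440, Olfr1449, Olfr1462, Olfr1419 and Olfr1424 on their side of the threshold throughout. With array weights 4 members were lower rather than 2, Olfr1428 (-0.20, limma p of 0.0465) and the probe set shared by Olfr1426, Olfr1424 and Olfr1425 being added, and the median fell to 0.043. Leaving out 1 array gave 3 to 8 higher members (3 without H2be-KO replicate 5), 2 to 3 lower members and medians of 0.017 to 0.13, while 7.94% of all probe sets were higher without H2be-KO replicate 4 (8 members) and 1.82% without H2be-KO replicate 5. Olfr1453 ran from -0.15 without H2be-KO replicate 1 to 0.0083 without H2be-KO replicate 6 (limma p of 0.950), where its sign turned. For these changes the cause was not tested. With the replicate block, where replicate numbers stand for pairs, 9 members were higher, 3 lower and the median was 0.084, and Olfr1451 (limma p of 0.0342) and Olfr1499 (0.0325) were added to the higher ones; 4 of 6 arrays correlated best with their own number. Over all probe sets the block called 2039 higher and 951 lower against 1065 and 498, array weights called 2694 and 1405, and quantile normalization called 825 and 900. Olfr1461 was lost with array weights (limma p of 0.0956) and by the exact permutation test, and Olfr1445 with trend and robust moderation (limma p of 0.0947) and relative to the other ORs (0.104). Both were lost without the H2be-KO arrays of high Amelx (limma p of 0.0586 and 0.0580). Signals near the filter, as those of Olfr1462 and Olfr1451, lie closest to background, where the array measures least.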

Other observations

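The members were read for what they share besides their signals. In the 250 bases before the RefSeq start, 38 of 54 members (70.4%) held the letters TAATNA, a core bound by homeodomain proteins, on either strand, compared with 63.6% of 890 other OR windows and 24.3% of 32851 windows of all genes. TAATTA, contained in it, was held by 12 members (22.2%), compared with 17.9% of the other ORs and 4.84% of all genes. The letters CCCNNGGG, a core of EBF sites, were found in 1 member, Olfr1443 (1.85%), compared with 2.81% of the other ORs and 11.8% of all genes. Only 9 member models are longer than 1000 bases, so most windows lie before the start codon and not before a mapped transcript start, and a match is a description of letters only.

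After the genotype means were removed, the signals of 2 members correlated over the 12 arrays at a median of 0.21 across 1485 pairs. The median was 0.24 for 427 pairs within a MOR family, 0.19 for 951 pairs across families, 0.20 for 49 neighboring pairs and 0.14 for 534061 pairs of other ORs. The pairs share arrays and members, and these values are a description.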
